A study of Rattus norvegicus with 12 samples.

Results

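One gene of chromosome 9, listed in the deposited counts as ENSRNOG00000032869, was evaluated in retinas of RCS rats. It was selected from the 32883 annotated genes as a gene of chromosome 9 that starts between 72.8 and 73.05 Mb in the Rnor_6.0 build, has an exon length of at most 1000 bases and has at least 20 counts summed over 12 libraries. The interval holds 1 annotated gene with or without the limits on length and counts, so the selection gave a single gene and not a cluster. The gene was also picked with its fall between the ages known, and its difference between p21 and p60 is therefore given as a description without a test. RCS rats carry a mutation of Mertk, the receptor with which the retinal pigment epithelium takes up shed photoreceptor outer segments, and their photoreceptors degenerate after birth. Poly(A) RNA of whole retinas was sequenced on postnatal day 21 (p21) and p60. At each age, 3 libraries came from RCS-p+ rats labelled WT male (libraries 1, 2 and 3 at p21 and 19, 20 and 21 at p60), referred to as the immunocompetent line. The other 3 came from RCS-p+/Foxn1mu rats labelled athymic female (libraries 4, 5 and 6 at p21 and 22, 23 and 24 at p60), where Foxn1 is required for the thymus. Both lines are therefore RCS rats, and no retina without degeneration was part of the 12 libraries.

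Line and labelled sex coincide, and 3 libraries did not match their sex label. The 48 genes of the Y chromosome had between 229.2 and 323 counts per 1000000 counts of the library (CPM) in the 6 libraries labelled male. Libraries 4, 5 and 22 are labelled female but had 328.3, 315.5 and 269.2 CPM on these genes, whereas libraries 6, 23 and 24 had 8.79, 23.2 and 16.1 CPM. The difference between the lines and the interaction of age and line are therefore also given without libraries 4, 5 and 22. Values within the athymic line are given with all its libraries or with single libraries left out. The labels give each library its own number but do not say that each is from another animal, so the p-values measure the spread between these libraries, which may in part be technical.

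The gene has the structure of a gamma-crystallin. Gamma-crystallins are small, densely packed structural proteins of the fibre cells of the lens, where they keep the tissue transparent, and they are best known from fibre cells formed early in life. Some crystallins are also made in the retina itself, while the lens holds by far the most. The gene lies on chromosome 9 from 72933304 to 72935468 on the + strand, and its 3 exons of 104, 243 and 337 bases add up to 684 bases. No other annotated gene overlaps it. The nearest annotated gene before it is 480330 bases away and had 0 counts in all libraries, and the nearest after it is 384242 bases away, has an exon length of 10002 bases and had 111955 counts. The counts list genes by Ensembl identifier alone, and the identifier had no entry in the RefSeq table at hand. Its span of 2165 bases and its strand were those of Crygf in RefSeq, and no other gene of chromosome 9 in the counts has both. Its place in the order of its neighbours was near that of Crygf, with a deviation of 4.5 ranks where up to 10 were allowed. The gene is therefore called the Crygf-matched gene, where the match rests on structure and position and not on an identifier.

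RefSeq names 6 gamma-crystallin genes on chromosome 9. Cryge, Crygd, Crygc, Crygb and Cryga lie on the - strand, and Crygf lies alone on the + strand. The sequence before their starts is shown with a short stretch that these genes share. The longest run of bases common to the 250 bases before the start of all 6 genes was CCCTTTTGTG, printed in capitals below, and it was found by searching these 6 windows. Read on both strands, it occurs in 32 of 33469 RefSeq promoters (0.0956%), where the 250 bases before each start were searched. These 32 include the promoters of the 6 genes from which the run was taken. The share for other runs of 10 bases was not computed, so nothing is read from this share. The sequences are from RefSeq for the GRCr8 build and read 5′ to 3′ along the gene, with the whole window for Crygf and 60 bases around the shared stretch for the others.
Crygf, chr9:74897734-74897983, + strand: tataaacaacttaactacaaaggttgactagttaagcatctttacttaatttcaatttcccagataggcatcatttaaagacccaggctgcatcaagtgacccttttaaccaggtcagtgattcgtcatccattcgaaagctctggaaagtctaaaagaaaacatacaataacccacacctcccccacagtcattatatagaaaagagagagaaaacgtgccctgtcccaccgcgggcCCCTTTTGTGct
Cryge, chr9:73926289-73926348, - strand: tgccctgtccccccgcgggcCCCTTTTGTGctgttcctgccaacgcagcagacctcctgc
Crygd, chr9:73937443-73937502, - strand: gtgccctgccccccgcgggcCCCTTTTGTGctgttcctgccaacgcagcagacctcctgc
Crygc, chr9:73947399-73947458, - strand: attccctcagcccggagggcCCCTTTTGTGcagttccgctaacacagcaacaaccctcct
Crygb, chr9:73957299-73957358, - strand: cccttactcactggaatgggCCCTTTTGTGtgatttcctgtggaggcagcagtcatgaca
Cryga, chr9:73978417-73978476, - strand: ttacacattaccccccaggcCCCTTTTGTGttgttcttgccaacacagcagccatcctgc
The shared stretch begins 12 bases before the annotated start of Crygf and between 70 and 91 bases before the starts of the other 5 genes. A shared stretch is a description of these sequences and was not tied to any factor. The GRCr8 positions cannot be set beside the Rnor_6.0 positions of the counts.

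Counts of the Crygf-matched gene were dominated by a few p21 retinas. At p21, the immunocompetent libraries 1, 2 and 3 had 5, 23 and 86 counts, and the athymic libraries 4, 5 and 6 had 1128, 15 and 230 counts. At p60, the immunocompetent libraries 19, 20 and 21 had 7, 11 and 0 counts, and the athymic libraries 22, 23 and 24 had 2, 2 and 5 counts. Library 4 stood far above all others, libraries 6 and 3 followed, and every p60 library was at or below 11 counts. The depth was similar throughout, where total counts ranged from 13852516 in library 3 to 16725355 in library 6.

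Scaled to depth, the p21 levels were 0.360, 1.46, 6.21, 75.5, 1.06 and 13.8 CPM in libraries 1 to 6. The exact 95% binomial intervals, which cover counting error only, were 71.2 to 80.1 CPM for library 4 and 12.03 to 15.6 CPM for library 6. The level in library 4 was 5.49-fold that of library 6 and 209.9-fold that of library 1 at the same age. The p60 levels were 0.494, 0.747, 0, 0.126, 0.129 and 0.336 CPM in libraries 19 to 24. The 0 counts of library 21 allow a level of up to 0.198 CPM by a limit of 3 counts of its total, and the upper end of its exact 95% interval was 0.244 CPM. The ages overlapped, where library 1 at p21 lay below libraries 19 and 20 at p60 and the other 5 p21 libraries lay above all of them. Of the 1514 counts of this gene, 74.5% (exact 95% interval 72.2 to 76.7%) were in library 4 and 95.4% were in libraries 3, 4 and 6 together. The p60 libraries held 27 counts, or 1.78% of the total.

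**Figure D1:**
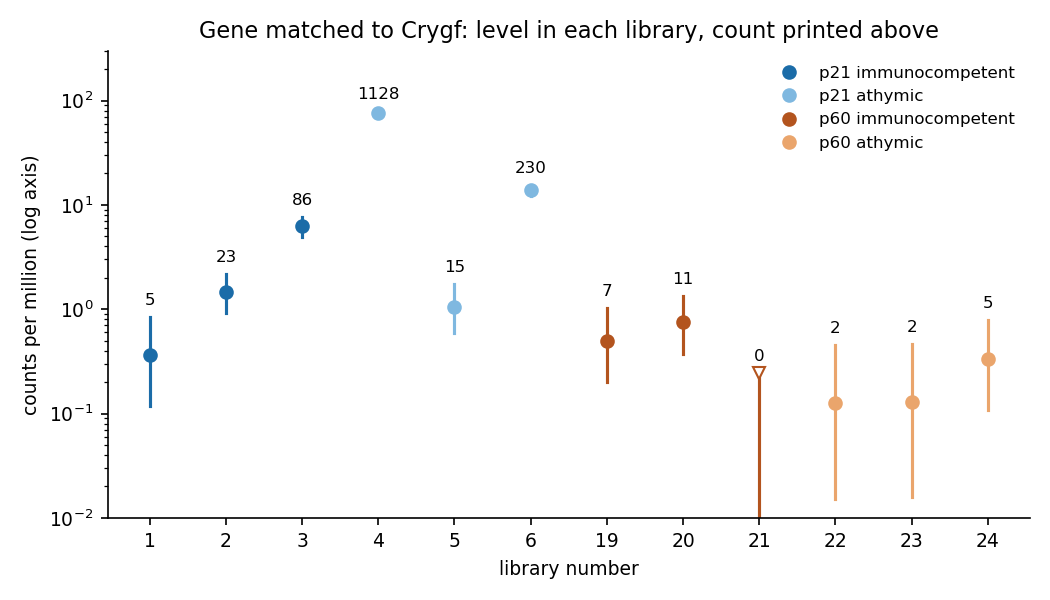
Level of the Crygf-matched gene in each of the 12 libraries, in CPM on a log axis, with the count printed above each point and exact 95% binomial intervals as lines. Colours mark age and line, and the open triangle for library 21 marks the upper end of the exact interval for 0 counts. Library 4 (1128 counts) and library 6 (230 counts) stand above the rest, and the p60 libraries lie between 0 and 11 counts.

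Within a library, the place of this gene among all genes moved as widely. Per kilobase of exon, its level was 110.4 CPM in library 4 and 20.1 CPM in library 6. Ranked per length over all annotated genes, it was the 588th most abundant gene in library 4, with 98.2% of genes below it. It ranked 4895th in library 6 and 8494th in library 3, and between 12768th and 20028th in the other 9 libraries. The rank of 20028 is that of library 21, where 20027 genes had counts and this gene had none. In library 4, it thus ranked above most genes of the whole retina. In library 1 of the same age, it ranked 15632nd, where 19600 genes had counts.

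The p21 group means were smaller than their SD, and the p60 group means were larger than theirs. The group means were 30.1 ± 39.8 CPM in the p21 athymic, 2.68 ± 3.11 CPM in the p21 immunocompetent, 0.414 ± 0.380 CPM in the p60 immunocompetent and 0.197 ± 0.1203 CPM in the p60 athymic libraries (SD, n = 3 each). In this order, the range of each group overlapped that of the next one. The p21 and p60 athymic libraries did not overlap, with 15 to 1128 counts against 2 to 5 counts. Over both lines, the level was 16.4 ± 29.4 CPM at p21 and 0.305 ± 0.278 CPM at p60 (SD, n = 6), and 4.57 ± 5.63 CPM at p21 without library 4 (n = 5).

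The age comparison sets whole-retina samples of p60 beside those of p21. The log2 fold change of p60 against p21 was -5.52 (SE 1.22) over all 12 libraries with line as a covariate, -2.85 (SE 1.02) in the immunocompetent line and -7.39 (SE 1.62) in the athymic line. In the fits over all genes with edgeR, 62% of the 16069 genes tested passed an adjusted p of 0.05 over all libraries, 51.4% of 15412 passed in the immunocompetent line and 49.9% of 15507 passed in the athymic line. These shares are given as background, and nothing is read from them for a gene chosen by this contrast. Without library 4, the value in the athymic line was -5.40, and without library 3 the value in the immunocompetent line was -1.36. In whole tissue, fewer cells of a type, less RNA per cell and less lens tissue in the sample cannot be told apart. Without a retina free of degeneration, a change with degeneration cannot be told apart from a change with age.

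The spread of this gene between libraries of the same condition was among the widest in the data. Its biological coefficient of variation was 1.13, above that of 99.7% of the genes tested, where the median gene had 0.109. The value for the lens gene Crybb1 was 1.39, and that of Gnat1, the transducin of rods, was 0.140.

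The comparison of the lines was not the contrast by which the gene was chosen and was tested, although the level of library 4, an athymic library, was known at the choice, so the test is not independent of it. The level was higher in the athymic than in the immunocompetent line by 2.76 on the log2 scale (SE 1.12) with age as a covariate, with an unadjusted p of 0.0279 and an adjusted p of 0.346 (Benjamini-Hochberg, quasi-likelihood test of edgeR), so the difference did not pass the threshold. Of the 16069 genes tested, 0% passed in this comparison, where edgeR gave an unadjusted p under 0.05 for 1904 genes and DESeq2 called 263. The difference was 0.75 (edgeR adjusted p = 0.826) without library 4 and 1.36 (edgeR adjusted p = 0.711) without libraries 4, 5 and 22. With DESeq2, it was 1.33 (SE 1.19) over all libraries, with no adjusted p. The athymic mean was the higher at p21 and the lower at p60.

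The interaction of age and line contains the age contrast by which the gene was chosen and is given as a description. It was -4.54 on the log2 scale (SE 2.67), and it was -3.18 without libraries 4, 5 and 22. In this comparison, edgeR called 1 gene of 16069 (0.00622%), with an unadjusted p under 0.05 for 1494 genes, and DESeq2 called 146.

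Over all 12 libraries, the genes whose levels were most like that of the Crygf-matched gene lay on the same chromosome, but this ranking did not hold within an age or by rank correlation. Over the 12 libraries, log2(CPM + 0.5) of each of the 16069 genes kept by the filter was compared with that of the gene by Pearson's r, which is given as a description. Of these, 5 genes reached an r of at least 0.9, and the first 4 of them lay between 71764318 and 71830730 on chromosome 9. They are 1102574 bases or more from the Crygf-matched gene, with 5 annotated genes between, and were outside the interval of the selection. The first was ENSRNOG00000014790 (r = 0.975, 71828308 to 71830730), followed by ENSRNOG00000032219 (r = 0.923, 71764318 to 71778323) and the genes at 71786248 to 71788281 (r = 0.916) and 71796204 to 71798265 (r = 0.910). They are called similar genes 1 to 4 in the order of their position, so ENSRNOG00000032219 is the first and ENSRNOG00000014790 is the fourth. The 12 libraries share age and library 4 as sources of their spread, and the ranking depended on them. Without library 4, 5 genes again had an r of at least 0.9, but 1 similar gene was among the 10 most alike and the lowest of the 4 ranked 101st. By Spearman's rho, 1 similar gene was among the 10 most alike (lowest rank 119), as without libraries 4 and 6 (lowest rank 585). Over the p21 libraries alone and over the p60 libraries alone, 0 of the 4 were among the 10 most alike (lowest ranks 27 and 995). The 5th to 10th genes lay on chromosomes 2, 2, 18, 14, 1 and 3, with an r between 0.873 and 0.903.

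The similar genes share the build of the Crygf-matched gene, which was not used to find them. All 4 lie on the - strand, opposite to the Crygf-matched gene, and each has an annotated exon of 243 bases, the length of exon 2 of the Crygf-matched gene. Among the 2313 genes of the annotation with exactly 3 exons, 9 have a second exon of 243 bases, and 4 of these 9 are the Crygf-matched gene and 3 of the similar genes. The similar genes were not paired with the RefSeq names above. Gamma-crystallin genes resemble each other in sequence, and how reads that fit several genes were counted is not given in the sources used here, so the split of reads among these 5 genes is uncertain.

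**Figure D2:**
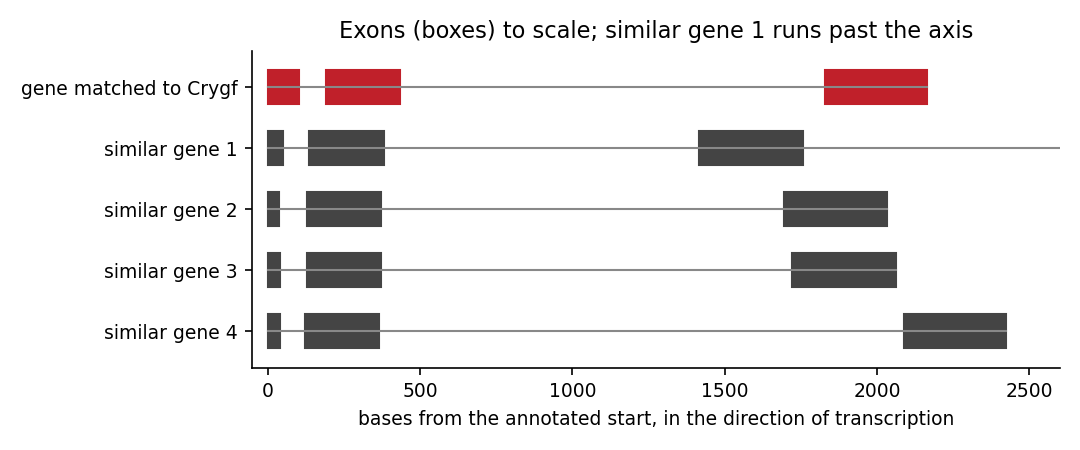
Exons (boxes) of the Crygf-matched gene and the 4 similar genes of chromosome 9, drawn to scale from the annotated start in the direction of transcription, in bases. All 5 have a short first exon, an exon of about 243 bases and, after a long intron, a longer exon, and similar gene 1 goes on past the axis to an exon that starts 13667 bases from its start.

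Counts of the similar genes were higher but followed the same libraries at p21. Summed over the 4 genes, libraries 1 to 6 had 232, 520, 1063, 32652, 262 and 2658 counts, and libraries 19 to 24 had 353, 287, 65, 155, 73 and 771 counts. Library 4 was again the highest, followed by libraries 6 and 3, whereas at p60 library 24 was the highest with 51.9 CPM and library 21 the lowest with 4.30 CPM. Per kilobase of exon, the levels in library 4 were 1118 CPM for similar gene 1, 735.8 CPM for gene 2, 365.0 CPM for gene 3 and 667.6 CPM for gene 4, compared with 110.4 CPM for the Crygf-matched gene. The similar genes were not uniform at p60. Gene 4 (ENSRNOG00000014790) had between 51 and 104 counts in every p60 library, while genes 2 and 3 ranged from 1 to 200 and from 0 to 139 counts. In libraries 21 and 23, gene 4 made up 78.5 and 74.0% of the counts of the 4 genes, against 18.8 to 33.2% in the 6 p21 libraries. In the other p60 libraries, its part was 29.5, 27.2 and 34.2% in libraries 19, 20 and 22 and 9.86% in library 24, the lowest of all 12.

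The Crygf-matched gene was a small part of the gamma-crystallin-like counts, and its part varied. Of the summed counts of the 5 genes, it took 2.11, 4.24, 7.48, 3.34, 5.42 and 7.96% in libraries 1 to 6. The part in library 4 (exact 95% interval 3.15 to 3.54%) was below those in library 3 (6.03 to 9.16%) and library 6 (7.002 to 9.01%), although library 4 had the most counts. At p60, the part was 1.94, 3.69, 0, 1.27, 2.67 and 0.644% in libraries 19 to 24, where the interval of library 24 ended at 1.497% and that of library 21 at 5.52%. Intervals of most p60 libraries were wide because few counts stand behind them.

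Markers of lens and retina were compared with the gene as far as they could be named. Of the 16 crystallins listed for lens fibres, 2 were matched by span, strand and order (Crygf itself and Crybb1, a beta-crystallin of the lens). Of the 6 genes listed for rods, 3 were matched by span and strand and 2 of these also by order. Gnat1 alone is given here, and 1 gene does not stand for the whole list. No gene was matched from the lists for the retinal pigment epithelium, cornea, ciliary body, muscle, red blood cells or Müller glia, so their levels were not analysed here. In libraries 1 to 6, Crybb1 had 149, 285, 605, 17913, 140 and 1685 counts. It was highest in library 4, followed by libraries 6 and 3, as was the Crygf-matched gene. In libraries 19 to 24, Crybb1 had 3255, 165, 36, 67, 35 and 1175 counts. Libraries 19 and 24 therefore stood above the other p60 libraries for Crybb1, while they had 7 and 5 counts of the Crygf-matched gene. Gnat1 had 9875 to 14011 CPM at p21 and 1323 to 1980 CPM at p60. Its lowest p21 level was in library 4, followed by library 3 (10552 CPM), while library 6 had 11971 CPM.

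**Figure D3:**
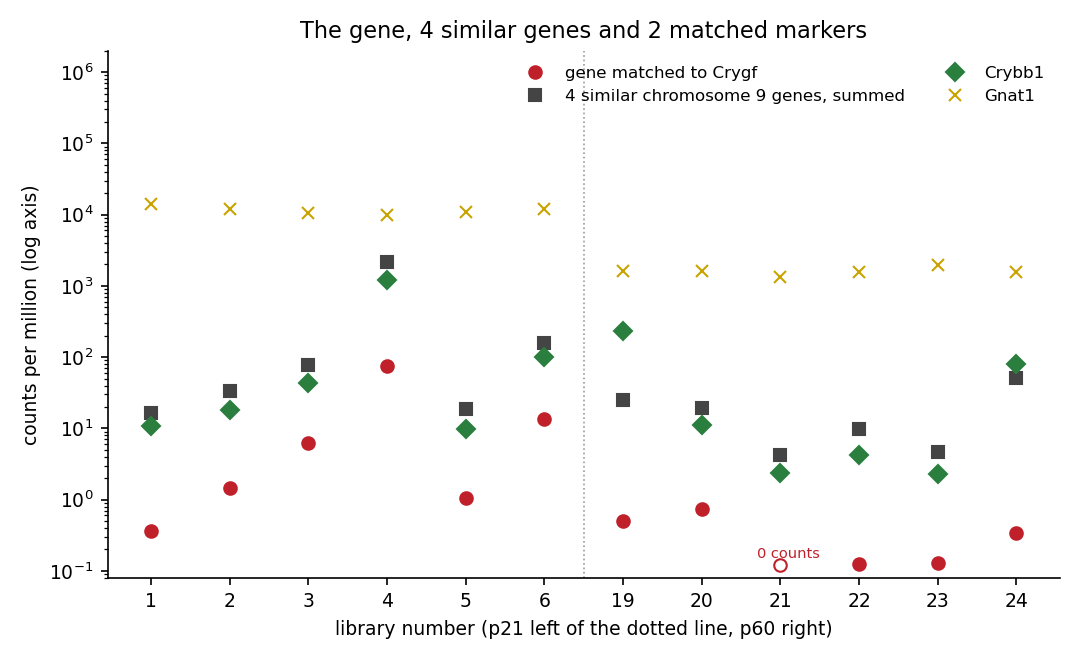
CPM, on a log axis, of the Crygf-matched gene, the summed 4 similar genes, Crybb1 and Gnat1 in each of the 12 libraries, with the open circle for 0 counts of the Crygf-matched gene in library 21. The Crygf-matched gene, the similar genes and Crybb1 peak together in libraries 4, 6 and 3 at p21, whereas in libraries 19 and 24 at p60 Crybb1 is high and the Crygf-matched gene stays at 7 and 5 counts.

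The relation between the gene and Crybb1 within each age, on log2(CPM + 0.5), is given as a description with no test, because the joint rise in single libraries was known when the gene was chosen. At p21, Pearson's r was 0.980 and Spearman's rho was 0.943 over 6 libraries, and r was 0.941 over the 4 libraries other than 4 and 6. The levels rose together in libraries 4, 6 and 3, from both lines. Over the p21 libraries alone, 319 genes had an r of at least 0.9 with the Crygf-matched gene. At p60, r was 0.639 and rho was 0.657, where the gene had 0 to 11 counts. Over the 4 libraries other than 19 and 24, r was 0.938. The gene had 11, 0, 2 and 2 counts in these libraries, so nothing is read from that value. That lens tissue was present in single retinas, and its part in the levels above, was not tested.

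The mix of lens-type counts was set beside its amount. The 4 similar genes made up 60.9, 64.6, 63.7, 64.6, 65.2 and 61.2% of the sum of their counts and those of Crybb1 in libraries 1 to 6. Their share thus lay within a few percentage points in all p21 libraries, while their summed level ranged from 16.7 to 2186 CPM. At p60, the share was 63.5, 64.4, 69.8 and 67.6% in libraries 20 to 23, but 9.78% (exact 95% interval 8.83 to 10.8%) in library 19 and 39.6% (37.4 to 41.8%) in library 24. The p60 libraries with the most Crybb1 were thus the ones in which gamma-crystallin-like counts made up the smallest share, where Crybb1 is itself part of the sum. A like share is not a like mix of the 4 genes. In libraries 21 and 23, similar gene 4 made up 78.5 and 74.0% of their counts, against 18.8 to 33.2% at p21.

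**Figure D4:**
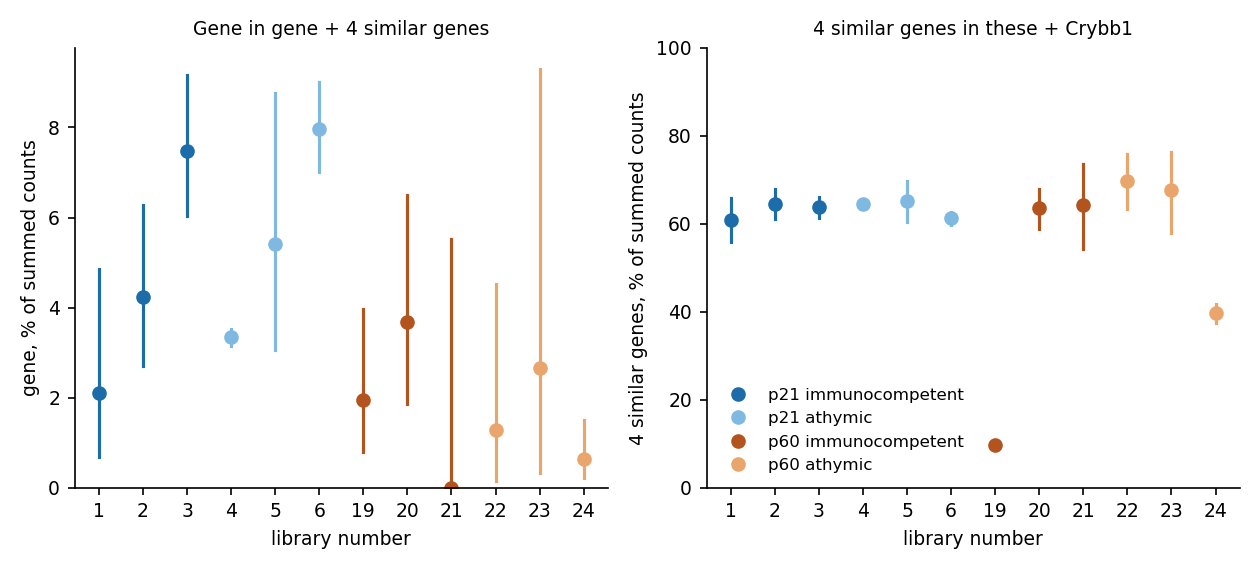
Left, counts of the Crygf-matched gene as a percentage of its counts and those of the 4 similar genes. Right, counts of the 4 similar genes as a percentage of their counts and those of Crybb1, per library, with exact 95% binomial intervals as lines. The right panel lies between 60.9 and 69.8% except in p60 libraries 19 (9.78%) and 24 (39.6%).

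Per 100 counts of Crybb1, the Crygf-matched gene had 3.36 to 14.2 counts at p21 (median 9.39) and 0 to 6.67 counts at p60 (median 1.71), where the ages overlapped. The values in libraries 19 and 24 were 0.215 and 0.426, the lowest apart from the 0 counts of library 21. Libraries 6 and 24 had 1685 and 1175 counts of Crybb1, and they differed in the Crygf-matched gene by 230 against 5 counts.

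The age difference of the markers is given as a description with no test, because their values by library were known. The log2 fold change of p60 against p21 for Crybb1 was -1.33 (SE 1.85) over all 12 libraries, 1.56 (SE 1.20) in the immunocompetent line and -4.11 (SE 1.71) in the athymic line. The lines thus went in opposite directions with all libraries, but the direction in the immunocompetent line rested on library 19. Without library 19, the value in that line was -2.01 (SE 0.61). In the athymic line, it was -1.16 without library 4 and -7.27 without library 24. The pooled direction also depended on single libraries, where the value was 0.31 without library 4 and -3.42 without library 19. For Gnat1, the log2 fold change over all libraries was -3.02 (SE 0.108).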

How the data were processed

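The 12 libraries of whole RCS rat retina, 3 for each age and line, had 13852516 to 16725355 counts each. The submitters' processing notes name STAR 2.5.2b, featureCounts of Subread 1.5.2, DESeq2 and the Rnor_6.0 build, while the study's methods name another version of featureCounts, so the version is uncertain. The authors deposited raw read counts per Ensembl gene, without normalization. The strand setting and the treatment of reads that fit several genes are not given in the sources used here, so counts of near-identical genes may be lost or split.

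From the deposited counts, genes were kept with filterByExpr (minimum count 10, minimum total 15), scaled with TMM factors and tested by quasi-likelihood in edgeR 4.0.16 (R 4.3.3), where p-values were adjusted over all genes tested (Benjamini-Hochberg, threshold 0.05). CPM used total counts. Shares were given exact binomial intervals (scipy 1.17.1). PCR copies are not independent molecules, so intervals and the limit of 3 counts cover counting error only. None of the 12 pairs of libraries within a group agreed within sampling noise (chi-square per degree of freedom 3.93 to 22.7), so none was merged as a duplicate. This does not show that they are from different animals.

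The member, the lists and the tests were chosen with earlier results of these data known. The genes named were the gene of the selection, the 10 genes most alike to it, of which 2 are given by identifier, and the listed lens crystallins with at least 20 counts. A further marker is not reported here. Gnat1, from the rod list, was added to them after its values were seen. Symbols were taken from RefSeq (GRCr8), where 0 identifiers matched and 1392 genes matched a span of at least 1000 bases on the same chromosome without a contradicting strand, of which 804 (57.8%) also kept their order among neighbours. Names are therefore uncertain to that degree, and only names that kept their order to within 10 ranks were used. The 6 gamma-crystallin promoters were matched by symbol. Alternatives were DESeq2's size factors, total counts alone, no filter, at least 10 counts in every library, DESeq2 1.42.0, leaving out each library, a model with 1 term for each of the 4 groups, and dropping the line. Plots were drawn with matplotlib 3.10.9.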

Additional observations from a re-analysis of the deposited data

Results flagged for a closer look

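On the CPM scale, the following values lay far from the other libraries of their age, where the gap to the nearest library took up more of the range over 6 libraries than Dixon's 95% critical value allows. Of 12 groups of libraries examined, 4 had such a library. The levels of library 4 were known when the gene was chosen. This number is therefore not set against chance, and the values are a description and not a test. On log2(CPM + 0.5), a scale added after seeing the data, 0 of the 8 groups of levels had such a library (the other 4 groups, of ratios to the similar genes and to Crybb1, were not put on this scale), and the gap of library 4 for the Crygf-matched gene was 0.374 of the range. At p21, the Crygf-matched gene had 75.5 CPM in library 4, against 0.360 to 13.8 CPM in the other 5 (gap 0.822 of the range). In the same library, the 4 similar genes of chromosome 9 summed to 2186 CPM, against 16.7 to 158.9 CPM (gap 0.934), and Crybb1 had 1199 CPM, against 9.88 to 100.7 CPM (gap 0.924). At p60, Crybb1 had 229.8 CPM in library 19, against 2.26 to 79.0 CPM in the others (gap 0.663), while the Crygf-matched gene had 7 counts there. The 3 values of library 4 come from 1 library and are not independent of each other.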

How the results depend on the processing

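The direction of the gene was the same in each comparison under every alternative that gave a value. Leaving out each library in turn, the age difference (log2, p60 against p21) ranged from -6.44 to -4.002 over all libraries. It ranged from -3.59 to -1.36 for immunocompetent and from -7.99 to -5.40 for athymic retinas, where -5.40 was without library 4. The line difference ranged from 0.75 to 3.50 and the interaction from -6.03 to -2.56. The edgeR adjusted p ranged from 0.227 to 0.826 for the line over the alternatives. DESeq2 gave a line difference of 1.33 (SE 1.19) and no adjusted p. Asking for 10 counts in each library removed the gene and gave no value. With TMM factors, library 4 had 80.5 CPM. The number of genes alike at 0.9 was 10 by rank correlation, and, by alternatives chosen after seeing the data, 3 without libraries 4 and 6, 319 at p21 alone and 129 at p60 alone. The age difference of Crybb1, whose alternatives were also added after seeing the data, turned positive without library 4 (0.31) and without libraries 4, 5 and 22 (0.51). It was -3.42 without library 19, and leaving out single libraries gave -3.42 to 0.31 over both lines. The causes were not tested. No paired analysis was possible because the groups share no replicate numbers. At p60, 0 to 11 counts per library cannot order most of the libraries. The exact binomial interval of library 20 (0.373 to 1.34 CPM) lay above that of library 21 (0 to 0.244 CPM). The intervals of every other pair of p60 libraries overlapped, and these intervals cover counting error only.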
